A study of Felis catus with 6 samples.

Results

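The keratin genes described here are the 7 entries of the deposited table whose symbol is KRT followed by a number, KRT7, KRT15, KRT16, KRT17, KRT18, KRT19 and KRT32, out of 633 listed genes in all. The table comes from polyA RNA-seq of PETCC2610, a feline kidney cell line, in 2 groups of 3 libraries. The first group received DOX, which the series text gives as the inducer of senescence, and the second (DOX+PeptideE) received DOX together with peptide E, a peptide from a Bifidobacterium adolescentis LA20-k9 fermentation. All 6 libraries therefore carry DOX, and cells without it were not analysed here. The labels spell out neither DOX nor its dose, time or the number of passages, and they do not say whether the line is a single clone. They call the 3 libraries of a group biological replicates.

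Keratins are the intermediate filament proteins of epithelial cells. Each filament is built from paired chains, an acidic type I chain with a basic type II chain, and the pairs in use mark the kind of epithelium. Simple epithelia, among them kidney tubules and collecting ducts, use KRT8 with KRT18, together with KRT7 and KRT19. The basal layer of stratified epithelia uses other chains, among them KRT15, while KRT16 and KRT17 are induced in wounded or stressed epidermis and KRT32 belongs to the hair cuticle. KRT7 is the only type II chain among the 7, and the other 6 are type I. KRT8, the usual partner of KRT18, and KRT5 and KRT14, the usual basal pair, are not among the listed genes and were not analysed here.

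The members were found in a table that the authors had already limited to genes differing between these groups. Tested on the table, every listed gene has an unadjusted p of at most 0.0498 and a fold of at least 1.5 for genes listed higher or at most 0.666 for genes listed lower. All 7 keratins are listed lower with peptide E, as are 53.7% of all listed genes. Because the same contrast selected the genes, the differences between the groups are given as a description. No p from the fits made here is printed for any of the 7 keratins, only whether a threshold was passed. The p-values printed for single members are the authors' own. Of the 7, KRT7 lay nearest to the fold limit, with a fold of 0.573 in the authors' deposited table, and KRT32 nearest to the p limit, with 0.0225. Genes beyond those limits were not analysed here.

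The deposited values are a normalized expression signal whose unit is not stated, called the expression value below. Whether it is divided by transcript length is not stated either, so levels of different keratins are compared only where they lie far apart. Close relatives such as KRT16 and KRT17 share long stretches of sequence, and reads that match both make either value uncertain. In RNA from a whole culture, fewer cells of a type and less RNA per cell cannot be told apart.

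Levels differed widely between the keratins. The simple-epithelium chains KRT18 and KRT7 lay above 250 in all 6 libraries, KRT15 lay between 20.5 and 38.22, and KRT16, KRT17, KRT19 and KRT32 stood at single digits. By mean over all 6 libraries KRT18 was number 14 and KRT7 number 17 of the 633 listed genes, KRT15 was number 80, and the others were numbers 276 (KRT16), 384 (KRT17), 389 (KRT19) and 444 (KRT32). KRT18 and KRT7 together made up 95.3% ± 0.316 of the summed keratin value with DOX and 95.7% ± 0.634 with peptide E (SD, n = 3 each). The listed keratin RNA was therefore nearly all of the simple-epithelium kind in both groups. Neighbours in the order of levels were often closer than their spread. KRT17 (2.84 ± 0.325) and KRT19 (2.60 ± 0.615; SD, n = 3 each) could not be ranked with DOX, nor could they with peptide E, where they stood at 1.49 ± 0.0529 and 1.59 ± 0.239 (SD, n = 3 each).

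**Figure D1:**
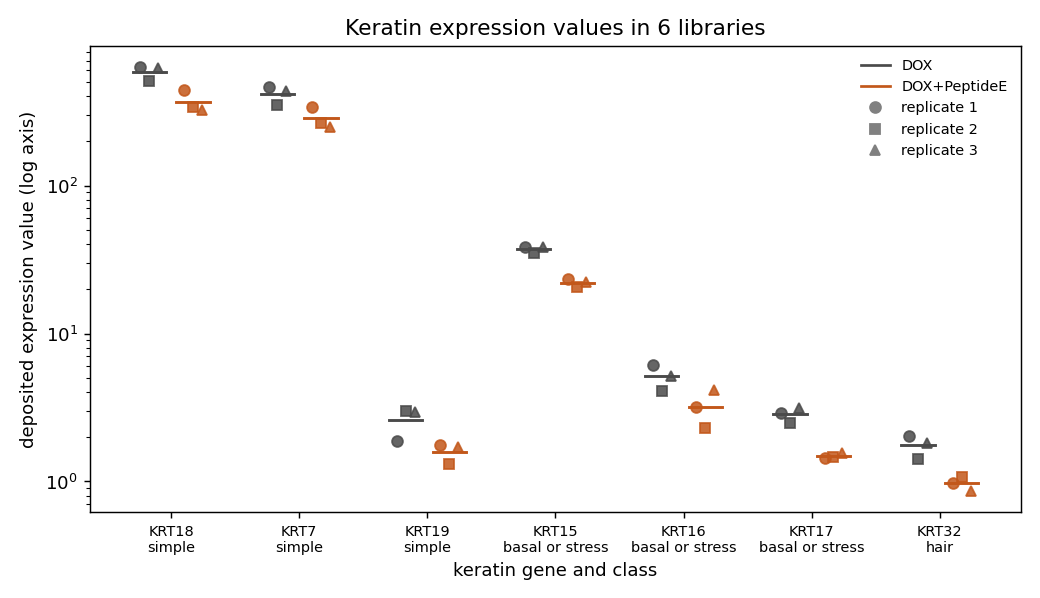
Deposited expression value (log axis) of the 7 keratins in each library, DOX in grey and DOX+PeptideE in orange, with marker shapes for the replicates and horizontal lines at the group means. KRT18 and KRT7 lie above 250 in all 6 libraries, and the peptide E libraries lie below the DOX libraries for each gene but KRT16.

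Of the simple-epithelium chains, KRT18, the type I chain, had expression values of 631.54, 507.65 and 627.31 in the 3 DOX libraries and 441.46, 342.01 and 324.61 in the 3 peptide E libraries. The groups did not overlap, and DOX replicate 2 and peptide E replicate 1 lay nearest to each other. The mean was 589 ± 70.3 with DOX and 369 ± 63.0 with peptide E (SD, n = 3 each), which is 37.3% lower. KRT7, the type II chain of ducts and other simple epithelia, showed the same order of libraries, with 461.97, 348.78 and 433.14 with DOX and 337.35, 266.26 and 250.19 with peptide E. Here DOX replicate 2 and peptide E replicate 1 were only 11.4 apart, against SDs of 58.8 and 46.4 within the groups, so the separation of the groups in KRT7 is narrow. Its mean was 415 with DOX and 285 with peptide E, 31.4% lower.

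KRT19, a type I chain of ductal and other simple epithelia, was far lower than these, at 1.89, 2.98 and 2.93 with DOX and 1.76, 1.32 and 1.70 with peptide E. DOX replicate 1 was the low library of its group here, although it was the high library for KRT18 and KRT7, and it lay 0.13 above the highest peptide E library. KRT19 had the widest spread of the 7 with DOX, a coefficient of variation of 23.7%, and its mean was 38.7% lower with peptide E.

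Among the basal and stress keratins, KRT15, a chain of basal cells and of hair follicle stem cells, was the best separated. It stood at 38.22, 34.82 and 38.18 with DOX and at 23.38, 20.50 and 22.30 with peptide E. The gap between the groups, 11.4, was several times the SD within them (1.95 and 1.45, n = 3 each), and the mean was 40.5% lower. KRT17, a keratin of stressed and regenerating epithelium, was at 2.91, 2.49 and 3.13 with DOX and at 1.45, 1.47 and 1.55 with peptide E. Its peptide E libraries were nearly equal, with a coefficient of variation of 3.55%, and its mean was 47.6% lower, the largest relative difference of the 7.

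KRT16, the second stress keratin, was the exception in its replicates. It was at 6.17, 4.10 and 5.20 with DOX and at 3.21, 2.29 and 4.12 with peptide E. Peptide E replicate 3 lay above DOX replicate 2, so the groups overlapped, and the coefficient of variation of 28.5% with peptide E was the widest of any keratin in either group. The means were 5.16 ± 1.04 and 3.21 ± 0.915 (SD, n = 3 each), 37.8% lower.

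KRT32, the hair cuticle chain, had the lowest mean of the 7, with 2.04, 1.42 and 1.82 with DOX and 0.98, 1.07 and 0.86 with peptide E. The groups did not overlap, and the mean was 44.9% lower. KRT19 lay below it in DOX replicate 1, so their levels are not ranked. KRT32 is the only listed gene of 8 hair or nail matrix markers.

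Across the family, the peptide E libraries lay wholly below the DOX libraries in 6 of the 7 keratins, against 207 (32.7%) of all 633 listed genes. The 633 include 293 genes listed higher, and only 340 are listed lower, as all 7 keratins are. The share of 32.7% is therefore a low base for the keratins, and the count is a description only. Fitted by limma on log2(value + 1) over the 499 listed genes whose mean reached 1 in either group, the log2 fold change of peptide E over DOX was -0.68 for KRT18 (standard error 0.17), -0.54 for KRT7 (0.17), -0.46 for KRT19 (0.18), -0.72 for KRT15 (0.15), -0.56 for KRT16 (0.21), -0.62 for KRT17 (0.16) and -0.48 for KRT32 (0.16). The median of the 7 was -0.56, that of all 499 genes was -0.22, and that of the 257 tested genes listed lower was -0.41. The added 1 understates the change of the 4 keratins at single digits. All 7 had a Benjamini-Hochberg adjusted p under 0.05 over the 499 genes, as did 23.6% of the tested genes in the lower direction and 45.9% of the 257 tested genes listed lower. This count describes genes already chosen on the contrast and is no support for it.

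That count changed with the library left out, and so did the count over all tested genes. It was 3 without DOX replicate 3 and 3 without peptide E replicate 2 (KRT15, KRT17 and KRT18 in both), 4 without DOX replicate 1 (those 3 and KRT19) and 6 without DOX replicate 2 (all but KRT19). It was 7 without peptide E replicate 1 and 7 without peptide E replicate 3. Over all tested genes, in both directions, 355 of 499 passed with all 6 libraries. Without DOX replicates 1, 2 and 3 in turn, 243 of 499, 307 of 502 and 241 of 501 passed. Without peptide E replicates 1, 2 and 3 these were 413 of 500, 180 of 498 and 293 of 491. The drop was therefore not particular to the keratins. The keratin fold changes stayed negative in each of these fits, which the absence of overlap fixes for all but KRT16. For KRT18 they reached -0.78 without DOX replicate 2, its lowest DOX library, and -0.81 without peptide E replicate 1, its highest peptide E library. KRT16 ranged from -0.71 without peptide E replicate 3 to -0.39 without peptide E replicate 2, the widest range of the 7, while KRT15 ranged only from -0.77 to -0.67.

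**Figure D2:**
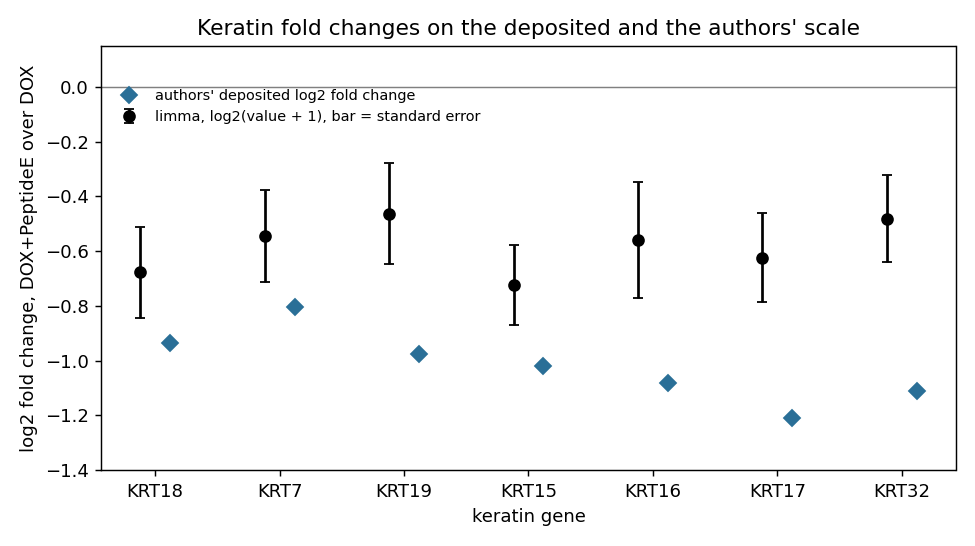
Log2 fold change of DOX+PeptideE over DOX for each keratin, from limma on log2(value + 1) with standard errors (black) and as given in the authors' deposited table (blue diamonds). All 14 values are below 0, from -0.72 to -0.46 in limma and from -1.21 to -0.80 in the authors' table.

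On the authors' own scale the differences were larger and in another order. In log2 units, the change in the authors' deposited table is -1.21 for KRT17, -1.11 for KRT32, -1.08 for KRT16, -1.02 for KRT15, -0.98 for KRT19, -0.94 for KRT18 and -0.80 for KRT7. In that table the 3 basal or stress keratins and the hair keratin thus lie below the 3 simple-epithelium keratins. The boundary is narrow, with KRT15 at -1.02 and KRT19 at -0.98, so the classes are not ranked by it. KRT16 was lower there than on the deposited expression values by 0.39, against 0.25 to 0.28 for the others. On the deposited expression values the order was less clear by class. The ratio of group means was 0.524 for KRT17, 0.551 for KRT32, 0.595 for KRT15, 0.613 for KRT19, 0.622 for KRT16, 0.627 for KRT18 and 0.686 for KRT7, with KRT19 between KRT15 and KRT16. Of the 7 keratins, 5 have an adjusted p under 0.05 in the authors' deposited table. In the lower direction 153 (24.2%) of all 633 listed genes do so, of which only 340 are listed lower. The exceptions are KRT19 at 0.0648 and KRT32, which the table lists at 1, as it does 160 of the 633 genes.

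A scaling of whole libraries would move all keratins together, whereas a ratio between keratins within a library does not depend on it. The ratio of KRT18 to KRT7, the type I and type II simple-epithelium chains, was 1.37, 1.46 and 1.45 in the DOX libraries and 1.31, 1.28 and 1.30 in the peptide E libraries. It was lower in every peptide E library, although the difference was small next to the difference in either gene's level. On the log2 scale the ratio was 0.134 lower with peptide E, and the SD was 0.0503 with DOX and 0.0134 with peptide E (n = 3 each). KRT18 made up 56.0% ± 0.685 of the summed keratin value with DOX and 54.0% ± 0.468 with peptide E, and KRT7 39.3% ± 0.906 and 41.6% ± 0.303 (SD, n = 3 each).

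The balance of keratin classes, taken by summed values, overlapped between the groups. KRT15 weighs most in the basal or stress sum, with a DOX mean of 37.1 against 45.1 for the sum. KRT19 hardly enters the simple sum, with 2.60 against 1006. The summed values of KRT15, KRT16 and KRT17 amounted to 4.32%, 4.82% and 4.37% of the summed simple keratins in the DOX libraries and to 3.59%, 3.98% and 4.85% in the peptide E libraries. Peptide E replicate 3 was the highest of all 6 and peptide E replicate 1 the lowest. On the log2 scale the class ratio differed by -0.13 between the groups, less than the SD of 0.22 among the peptide E libraries (n = 3), by -0.03 without peptide E replicate 1 and by -0.25 without peptide E replicate 3. The overlap rests on replicate 3, since the other peptide E libraries lay below all 3 DOX libraries. The ratio of KRT17 to KRT18 behaved in the same way. KRT18 was 217, 204 and 200.4 times KRT17 with DOX and 304, 233 and 209 times KRT17 with peptide E, where the value of 304 came from peptide E replicate 1. The log2 ratio of KRT17 to KRT18 differed by -0.25, by -0.09 without that library and by -0.36 without peptide E replicate 3, on which the overlap of the groups again rests, while the SD with peptide E was 0.28 (n = 3), and it turned to 0.05 when 1 was added to both values. KRT15 was 6.19, 8.49 and 7.34 times KRT16 with DOX and 7.28, 8.95 and 5.41 times with peptide E, which overlap fully.

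**Figure D3:**
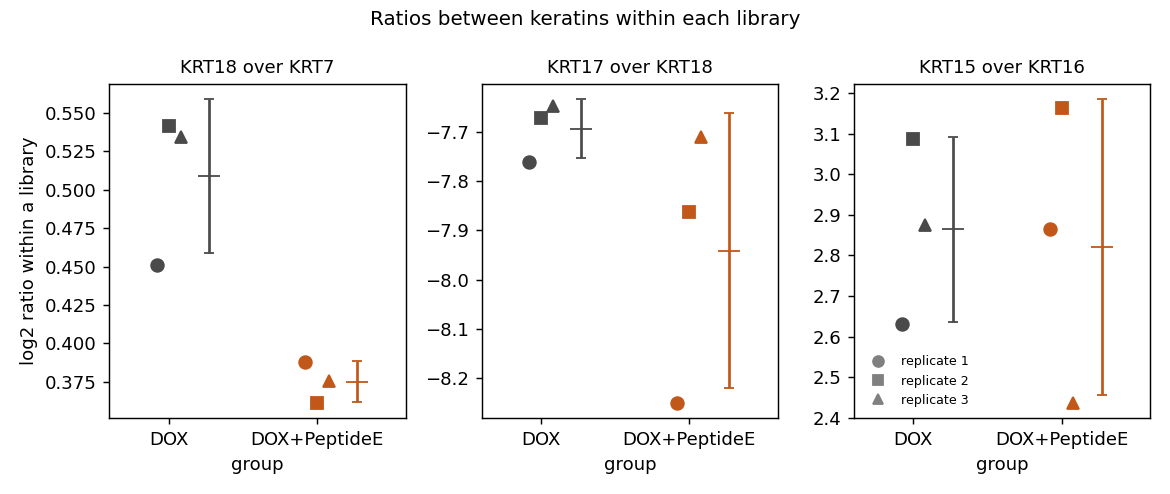
Log2 ratio of KRT18 to KRT7, of KRT17 to KRT18 and of KRT15 to KRT16 within each library, by group, with the mean and SD (n = 3) beside the points; each panel has its own axis. The groups separate for KRT18 over KRT7 and overlap for the other ratios.

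Over all 21 pairs of keratins, the within-library ratio was without overlap between the groups in 3 (14.3%). The same held for 9.99% of the pairs among 253 tested genes listed lower with no value at 0. The 3 pairs all include KRT7, with KRT17, KRT18 and KRT32, and KRT7 was the relatively higher gene with peptide E in each. The largest difference between the groups in any of the 21 log2 ratios was 0.38, for KRT7 over KRT17. For comparison, the log2 ratio of the group means of the single keratins ran from -0.93 to -0.54.

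The order of the libraries within a group was partly shared. DOX replicate 2 held the lowest DOX value in 6 of the 7 keratins, all but KRT19, and DOX replicate 1 the highest in 5. With peptide E, replicate 1 was the highest in 4 keratins, and the lowest value fell in replicate 2 for 3 keratins, in replicate 3 for 3 and in replicate 1 for KRT17. Values of other listed genes in the same libraries are given for comparison. Relative to the DOX mean on the log2(value + 1) scale, the median of the 7 keratins was 0.11, -0.18 and 0.07 in DOX replicates 1, 2 and 3, and the median of the 257 tested genes listed lower was 0.06, -0.09 and 0.04. In peptide E replicates 1, 2 and 3 the keratin median was -0.47, -0.63 and -0.59, and that of the genes listed lower was -0.33, -0.42 and -0.51. The genes listed higher went the other way, with medians of -0.0022, 0.05 and -0.05 in the DOX libraries and 0.39, 0.79 and 1.03 in the peptide E libraries. The part of a shared library scale in the keratin values was not tested.

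**Figure D4:**
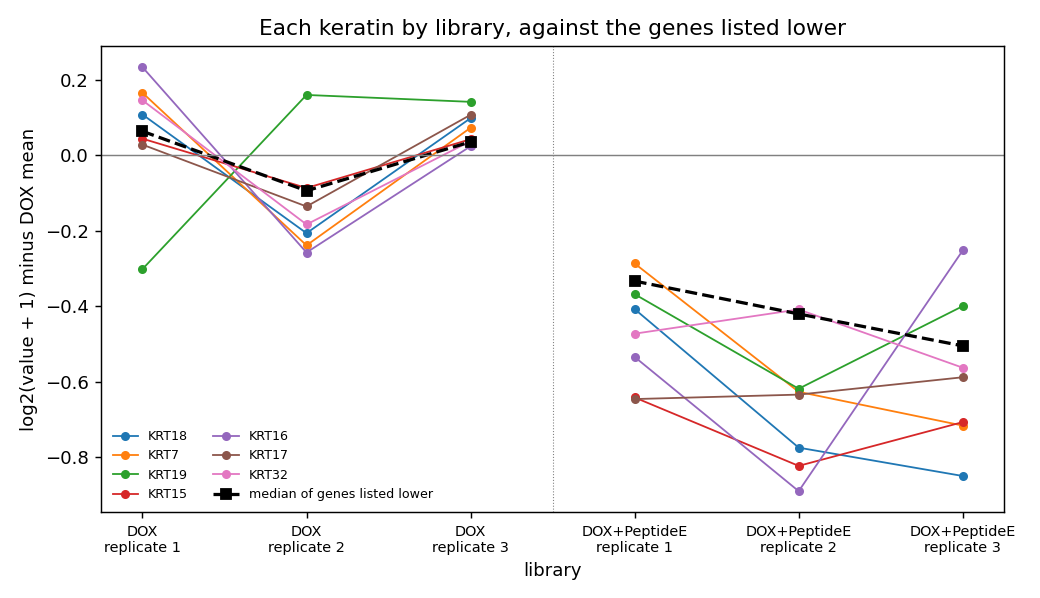
Log2(value + 1) of each keratin in each library minus its DOX mean (coloured circles), with the median of 257 tested genes listed lower (black squares); lines only join the points of a gene within a group. DOX replicate 2 is the low DOX library for each keratin but KRT19. KRT16 in peptide E replicate 3 is the highest keratin point with peptide E (-0.25), close to KRT7 in peptide E replicate 1 (-0.29).

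Set against listed genes of like level, KRT18 and KRT15 were among the lower ones. All 37 listed genes whose mean reached 100 were lower with peptide E, with a median limma log2 fold change of -0.43. Only 2 of them lay below KRT18, and 8 lay below KRT7. At means of 10 to 100, 68.5% of the 111 tested genes were lower, and 4 of those 76 lay below KRT15. At means of 1 to 3, where KRT17, KRT19 and KRT32 stand, 41.2% of 148 tested genes were lower, and 6 of those 61 lay below KRT17, 19 below KRT32 and 21 below KRT19. KRT16, at a mean of 3 to 10, had 14 of 76 lower genes below it.

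**Figure D5:**
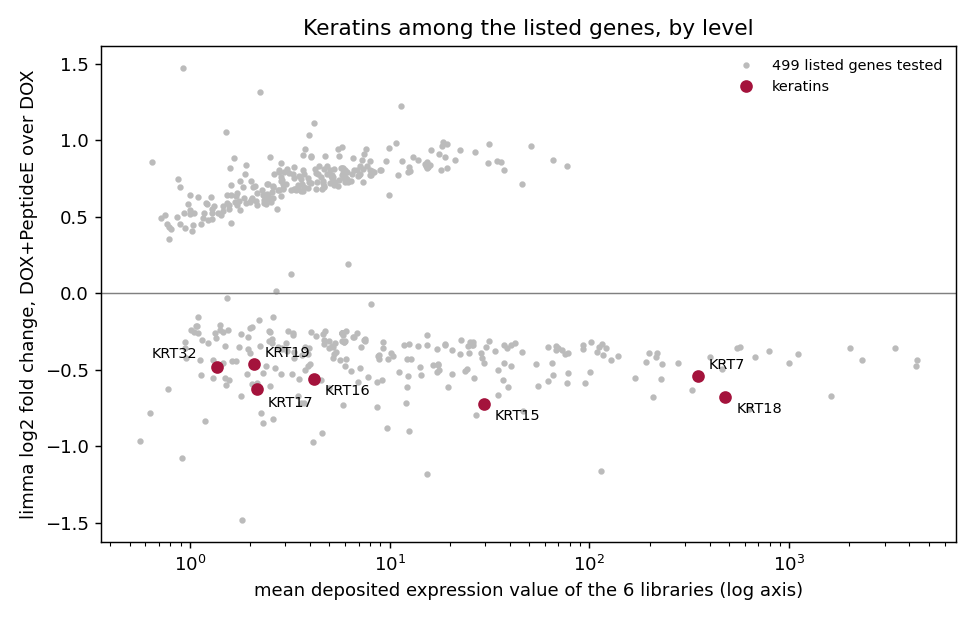
Limma log2 fold change of DOX+PeptideE over DOX against the mean deposited expression value of the 6 libraries (log axis) for the 499 listed genes tested (grey) and the 7 keratins (red). Few genes lie around 0, since the authors limited the table by fold on their own scale. STARD9 (0.02), XKR9 (-0.03) and KIF13B (-0.07) do lie close to 0 on the scale plotted. The keratins lie in the lower cloud from a mean of 1.37 (KRT32) to 479 (KRT18).

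The genes of most similar profile were ranked by the root mean square difference of mean-centred log2(value + 1) over the 6 libraries. For KRT7 these were IGFBP6, which binds insulin-like growth factors (0.0456), ETFB, a subunit of the mitochondrial electron transfer flavoprotein (0.0671), and NHP2, a ribonucleoprotein of small nucleolar RNA particles (0.0774). The median over the 163 candidate genes was 0.21. For KRT18 they were ISG15, a ubiquitin-like protein induced by interferon (0.0732), SFN (0.0817) and IGFBP6 (0.0823). IGFBP6 stood at 226.25, 178.99 and 202.36 with DOX and 159.07, 132.42 and 121.42 with peptide E, in the same order as KRT7 and KRT18. For KRT17 they were ECRG4, a secreted peptide precursor (0.086), the connexin gene GJB5 (0.0905) and HCFC1R1 (0.1). GJB5 was also nearest to KRT32 (0.0314), SFN to KRT15 (0.0939), FSIP1 to KRT16 (0.0727) and the chemokine gene CXCL10 to KRT19 (0.0961). Since every candidate was chosen on the same contrast, such likeness over 6 libraries is a description. It also holds only on the log2(value + 1) scale for keratins at single digits, whose changes the added 1 compresses. The ratio of group means was 0.689 for GJB5 and 0.641 for ECRG4, against 0.551 for KRT32 and 0.524 for KRT17. For KRT7 and IGFBP6, both abundant, it was 0.686 and 0.68.

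Genes that work with keratins were taken from lists. No member was listed of 15 other intermediate filament genes, 17 genes of desmosomes and hemidesmosomes, 11 plakins and filament linkers, or 13 keratin-associated proteins of hair, and these genes were not analysed here. Of 25 genes of the cornified envelope and stratified epithelium, 4 were listed, all lower, and all 4 passed the limma threshold over the 499 genes. In that direction 23.6% of the 499 passed it, and 45.9% of the 257 tested genes listed lower. SBSN did not pass without DOX replicate 3 (limma log2 fold change -0.51, adjusted p = 0.0707) or without peptide E replicate 2 (-0.71, adjusted p = 0.0515), and the other 3 genes passed in each fit with 1 library fewer. S100A2, a calcium-binding protein of basal keratinocytes, was at 795.57, 825.46 and 761.14 with DOX and 491.48, 495.06 and 427.11 with peptide E. SERPINB5, the serpin maspin, was at 92.2 ± 6.42 and 63.9 ± 2.59, and SFN, the 14-3-3 protein stratifin of epithelial cells, at 42.9 ± 5.11 and 26.7 ± 2.94 (SD, n = 3 each). SBSN, suprabasin of the upper epidermal layers, was at 4.90 ± 1.57 and 2.52 ± 0.301 (SD, n = 3 each). The groups did not overlap in any of these 4 genes. All peptide E libraries lay below all DOX libraries in 207 (32.7%) of all 633 listed genes, of which only 340 are listed lower. The count of 4 is therefore a description only. The list of 25 does not hold every gene of the cornified envelope and stratified epithelium. LCE6A, a late cornified envelope gene (1.52 and 0.763, with overlap), and PI3, the protease inhibitor elafin (66.7 ± 2.14 and 43.6 ± 3.38; SD, n = 3 each), were also listed lower and were named after their values were seen.

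Of 24 transcription regulators linked to keratin genes, only FOS, a subunit of the AP-1 factor, was listed, and it was higher, at 6.59, 6.46 and 7.39 with DOX and 11.55, 14.74 and 17.60 with peptide E. Of 18 kinases, chaperones and other proteins that modify or bind keratins, only TRIM29, a protein of basal epithelial cells, was listed. It was lower, at 3.52, 3.26 and 2.90 with DOX and 2.06, 1.40 and 1.92 with peptide E.

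The listed members of short marker lists for epithelial and other cell types were also lower with peptide E. These lists do not hold every marker. The matrix genes FBN1 (mean 12.6 with DOX and 25.4 with peptide E) and COL12A1 (11.6 and 25.3) are not on them and were higher. Both were named after their values were seen. The 5 listed of 16 tubular or simple epithelial markers were all lower, KRT18, KRT7 and KRT19 together with the water channel AQP1 (2.98 ± 0.14 and 2.19 ± 0.24) and the tubular injury marker HAVCR1 (1.21 ± 0.252 and 1.0 ± 0.386; SD, n = 3 each), whose groups overlapped. AQP1 (limma adjusted p = 0.0897) and HAVCR1 (0.405) did not pass the threshold, so the members that passed are the keratins themselves. The summed value of the 5, nearly all KRT18 and KRT7, was 863.94 to 1099.5 with DOX and 580.17 to 783.06 with peptide E. Of 9 basal or stratified markers, KRT15, KRT17, S100A2 and SFN were listed, all lower, with a summed value of 844.38 to 901.16 with DOX and 475.82 to 546.4 with peptide E. S100A4, the only listed of 9 fibroblast or mesenchymal markers, was also lower, at 257 ± 14.5 and 161 ± 23.1 (SD, n = 3 each), as were 3 of 6 striated muscle markers, whose sum was 151.89 to 173.58 with DOX and 67.86 to 77.46 with peptide E. No listed gene was among the 4 endothelial or the 4 immune markers. No listed marker was at 0 in any library. The part of a changed mix of cells in the keratin values was not tested.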

How the data were processed

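The table holds, per the file headers, values for 6 libraries, group means, and the authors' comparison. The library values are a normalized expression signal computed by the authors per gene and library; its unit is not stated. The authors' fold change (ratio), its log2 value and their p-values, unadjusted and adjusted, are used as deposited. Per the submitters' processing notes, FastQC 0.11.9 and fastp 0.19.5 were used. For the aligner, genome build, annotation and strand setting, the sources used here give no name. Depth is unknown, so precision rests on 3 libraries per group.

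Groups and replicate numbers came from the sample titles. Differences were fitted with limma 3.58.1 in R 4.3.3 on log2(value + 1), with a variance trend, over 499 listed genes whose mean reached 1 in either group, and Benjamini-Hochberg adjustment over these. The fit was tested on simulated data. Ratios within libraries used no pseudocount. Named were all keratins, the genes with the nearest profiles (3 each for KRT7, KRT17 and KRT18, with both group means at 5 or more; 1 each for the others, with both at 1 or more; no LOC symbols) and listed members of the gene lists, with values for up to 4 per list. The members and lists were chosen with earlier results of these data known. All 633 symbols were found in RefSeq's genes for assembly F.catus_Fca126_mat1.0, which was used for names and gene order only. Sequences were not used here.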

Additional observations from a re-analysis of the deposited data

How the results depend on the processing

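All 88 alternative log2 fold changes of single keratins were negative, from -1.02 to -0.18 (with no overlap between the groups, only a scaling could have turned the sign of 6 keratins), and of the 70 under settings that can move such a value, 53 lay within 1 SD between replicates of it. All 7 keratins passed the limma threshold with a pseudocount of 0.1 or 5, without the filter, without the variance trend and under both scalings. Most tested genes did so too, counted in both directions. With these pseudocounts 351 and 350 of 499 passed, without the filter 442 of 633 and without the trend 343 of 499. Under the scalings it was 438 of 499 (centred) and 450 of 490 (rescaled). With a minimum mean of 5 only 4 keratins were tested, and all 4 passed, as did 203 of all 287 genes tested. Leaving out 1 library gave 3 to 7 passing keratins, and from 180 of 498 to 413 of 500 passing genes in all. The median log2 fold change of -0.56 became -0.86 when libraries were centred on their median, a scaling that moved the median of all tested genes from -0.22 to -0.51, and -0.78 when peptide E libraries were rescaled by the authors' fold changes (all genes -0.38). The class ratio ranged from -0.25 to -0.03 and KRT17 to KRT18 from -0.36 to -0.09 with 1 library left out. The log2 ratio of KRT17 to KRT18 turned to 0.0545 with a pseudocount of 1, which compresses the low gene. KRT18 to KRT7 ranged from -0.16 to -0.12. With the replicate block 7 keratins passed, as did 362 of all 499 tested genes, and the keratin median was -0.56. Same-numbered libraries deviated together only for number 1 (correlation across genes 0.336, against -0.042 and -0.092). Unlike numbers reached 0.361 (DOX replicate 2 with peptide E replicate 3) and 0.254 (DOX replicate 3 with peptide E replicate 2). Whether the numbers pair the libraries cannot be told from 3 libraries per group. Depth is unknown and sets no stated limit.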

Other observations

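In the RefSeq gene order of the cat assembly F.catus_Fca126_mat1.0, numbered keratin symbols lie on 2 chromosomes, and the 7 listed keratins fall on both. KRT15 is followed directly by KRT19, KRT16 directly by KRT17, and KRT32 lies 4 genes before KRT15, while KRT7 and KRT18 lie on the other chromosome. No listed gene other than keratins stands within 5 genes of the 5 members of the first chromosome. The neighbours KRT15 and KRT19 had the same order of libraries with peptide E but not with DOX, where replicate 1 was the lowest for KRT19 and the highest for KRT15.

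The gene that directly follows KRT7 is LOC101096492, described as a type II cuticular Hb1-like keratin, and it is listed as well. It was named after its values were seen. It stood at 3.96, 3.39 and 3.03 with DOX and at 2.60, 2.64 and 3.02 with peptide E, so that DOX replicate 3 and peptide E replicate 3 were nearly equal. Its limma log2 fold change of -0.25 (standard error 0.17, Benjamini-Hochberg adjusted p = 0.19) was smaller than that of any of the 7 keratins. IGFBP6, the gene of most similar profile to KRT7, is the fifth gene after KRT18 in the same order.

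Between the deposited expression values and the authors' deposited table, the log2 change differed by 0.25 to 0.28 in 6 keratins and by 0.39 in KRT16, always with the lower value in the table. Over 236 genes listed lower whose means reached 1 in both groups, the median of this gap was 0.26, and 3.81% had a gap at least as large as that of KRT16. KRT16 was also the keratin whose groups overlapped. Why its values differ in this way was not tested.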
